A study of Mus musculus with 3 samples.

Results

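The glutamatergic synapse was represented by 6 genes, Slc17a7, Gria1, Gria2, Grin1, Grin2a and Camk2a, followed in maps of H3K4me3, trimethylated lysine 4 of histone H3, in mouse hippocampus. Their peaks were taken as every peak of either library that overlapped a fixed mm9 window around the gene. The windows, from 25 kb for Slc17a7 to 450 kb for Grin2a, held 9 of the 18515 peaks of the wild-type library (WT) and 12 of the 19631 peaks of the transgenic library (HD), with 1 peak of each at the edge of the Slc17a7 window. Overlapping peaks of the libraries were joined into regions, which gave 10 regions in the windows out of 20211 in all. The HD mice were N171-82Q transgenics, a Huntington's disease model in which a prion protein promoter drives an N-terminal fragment of mutant human huntingtin in neurons. The WT mice were their littermates without the transgene. Both groups were adult males of a C57/DBA F1 hybrid background, with no treatment and no age in weeks given in the labels. Each genotype had 1 chromatin immunoprecipitation library (ChIP-seq), from whole hippocampi of 3 pooled mice read as single ends of 50 bp. There was thus no spread between replicates, and no difference below was tested. In whole tissue, loss of the mark in some cells and fewer marked cells cannot be told apart.

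At an excitatory synapse, glutamate is loaded into vesicles by a vesicular transporter and acts on AMPA and NMDA receptors across the cleft. AMPA receptors carry the fast current, and NMDA receptors admit the calcium that activates CaM kinase II and sets off lasting changes in synaptic strength. H3K4me3 marks the start regions of active genes, most of which are rich in CG dinucleotides. At highly expressed cell type specific genes the mark often spreads over several kilobases into the gene. In the hippocampus these genes are expressed mainly in pyramidal and granule neurons, with the NMDA receptor subunits and some AMPA receptor subunits also present in interneurons.

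The proximal promoters of Grin1, Gria2 and Slc17a7, the genes of the set found in the promoter table, are shown for their CG content, since start regions rich in CG commonly carry the mark. Where they lie within the mm9 peaks was not analysed here. The sequences are from RefSeq on GRCm38.p6, while the peaks are on mm9. Each is the run of 250 bases before the annotated start, with every CG in capitals. That of Grin1 is chr2:25319188-25319437 on the minus strand, that of Gria2 is chr3:80802836-80803085 on the minus strand, and that of Slc17a7 is chr7:45163671-45163920 on the plus strand.
Grin1: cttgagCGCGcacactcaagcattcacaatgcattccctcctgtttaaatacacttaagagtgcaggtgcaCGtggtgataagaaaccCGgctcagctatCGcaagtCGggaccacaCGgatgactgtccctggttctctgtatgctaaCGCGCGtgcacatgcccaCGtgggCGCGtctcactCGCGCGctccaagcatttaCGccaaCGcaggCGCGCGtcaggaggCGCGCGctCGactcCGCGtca
Gria2: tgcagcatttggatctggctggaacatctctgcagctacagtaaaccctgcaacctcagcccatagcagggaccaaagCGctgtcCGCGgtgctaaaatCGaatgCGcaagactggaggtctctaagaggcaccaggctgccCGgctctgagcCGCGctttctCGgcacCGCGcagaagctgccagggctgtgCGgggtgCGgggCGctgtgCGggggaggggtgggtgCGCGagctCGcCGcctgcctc
Slc17a7: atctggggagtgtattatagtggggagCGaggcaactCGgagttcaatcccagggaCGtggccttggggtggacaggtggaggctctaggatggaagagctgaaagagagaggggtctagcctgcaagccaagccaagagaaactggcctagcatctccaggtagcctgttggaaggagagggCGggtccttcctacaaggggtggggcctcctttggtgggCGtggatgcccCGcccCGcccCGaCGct

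Promoters of 3 of the 6 genes matched the table by symbol. Those of Camk2a, Gria1 and Grin2a were not analysed here. The printed Grin1 promoter held 27 CG dinucleotides, of which 20 lay in the 125 bases next to the start. Gria2 held 19, with 14 in the nearer 125 bases. Slc17a7 held 9, with 6 in the nearer 125 bases. Over the table's windows of 300 bases, which add 50 bases after the start, the counts were 33 for Grin1, 26 for Gria2 and 13 for Slc17a7. The median of all 32851 promoters in the table was 7, and 91.4%, 83.1% and 62.1% of them had fewer than Grin1, Gria2 and Slc17a7. The GC content of the 3 windows lay closer together, at 60.7% for Grin1, 65.7% for Gria2 and 63.7% for Slc17a7, against a median of 52.7%. Among these 3 genes the order by CG count was the reverse of the order by length of the mark. Grin1, with the most CG, had the shortest promoter region of the 3, and Slc17a7 the longest. With 3 genes no relation can be read from this. The GC box GGGCGG, read on both strands and including 1 CG, occurred 3 times at Slc17a7, 1 time at Grin1 and 0 times at Gria2. Of all promoters in the table, 35.7% held it. The TATA box TATAAA and the cyclic AMP response element TGACGTCA, also read on both strands, occurred 0 times in the 3 windows, against 13.6% and 1.79% of all promoters with a match.

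The marked regions nearest the 5′ ends of the 6 windows were long. The promoter region was defined as the region with a peak of each library that lay wholly inside the window and nearest its 5′ end, so its presence in both libraries follows from the definition. No mm9 annotation was used here, so start sites and exons were not placed within the regions. Covered length, the number of base pairs under peaks, summed to 43560 bp in WT and 39004 bp in HD over the 6 promoter regions. Averaged over the libraries, 5 of the 6 were 5 kb or longer, as were 3.89% of the 17367 regions marked in both libraries. The exception, Grin1, was still longer than 86.7% of shared regions. Median peak widths were 2268 bp in the WT list and 2054 bp in the HD list.

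**Figure D1:**
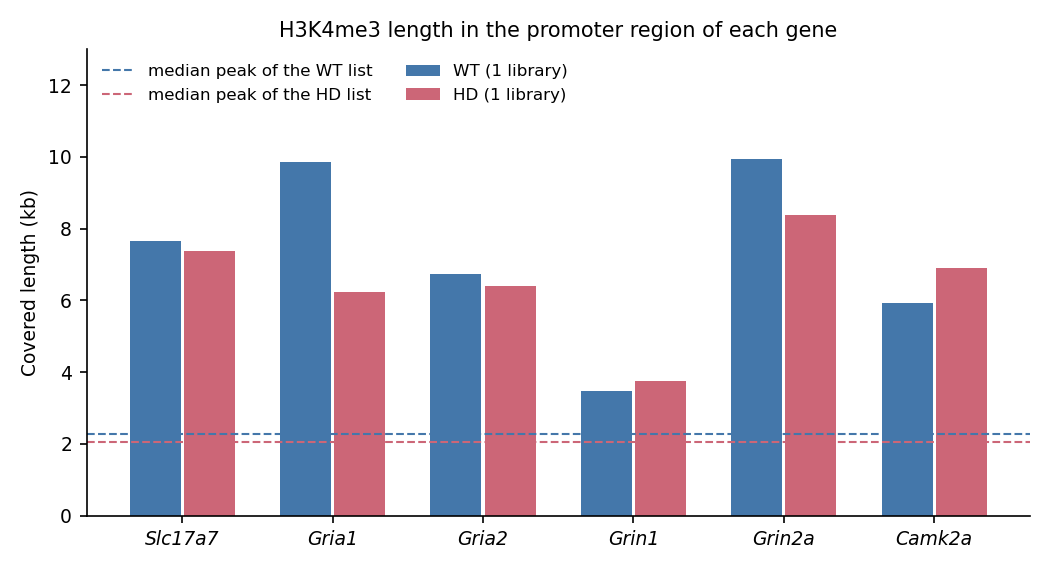
Covered length in kb of the promoter region of each gene, with 1 bar per library (WT blue, HD red) and no error bars, since each genotype has 1 library; dashed lines give the median peak width of each list. Gria1 shows the widest gap, 9849 bp in WT against 6223 bp in HD, and the gap is smallest at Grin1, Slc17a7 and Gria2.

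In HD, 4 of the 6 promoter regions were shorter and 2 were longer. The share of all shared regions that were shorter in HD was 69.0%, so this count is near the background. As log2 of HD over WT, covered length had a median ratio of -0.06 over the 6 promoter regions, against -0.09 over all shared regions and -0.07 over the 676 shared regions of 5 kb or more. Behind this median the genes differed. Gria1 was shorter in HD by more than 1.5-fold, as were 2.79% of shared regions and 1.78% of those of 5 kb or more. Grin2a was moderately shorter, Slc17a7 and Gria2 stayed near the genome-wide median, and Grin1 and Camk2a were longer. None of the 6 was more than 1.5-fold longer in HD, against 0.749% of shared regions. The 4 shorter regions lost 5800 bp in all, of which 62.5% lay at Gria1, and the 2 longer ones gained 1244 bp.

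**Figure D2:**
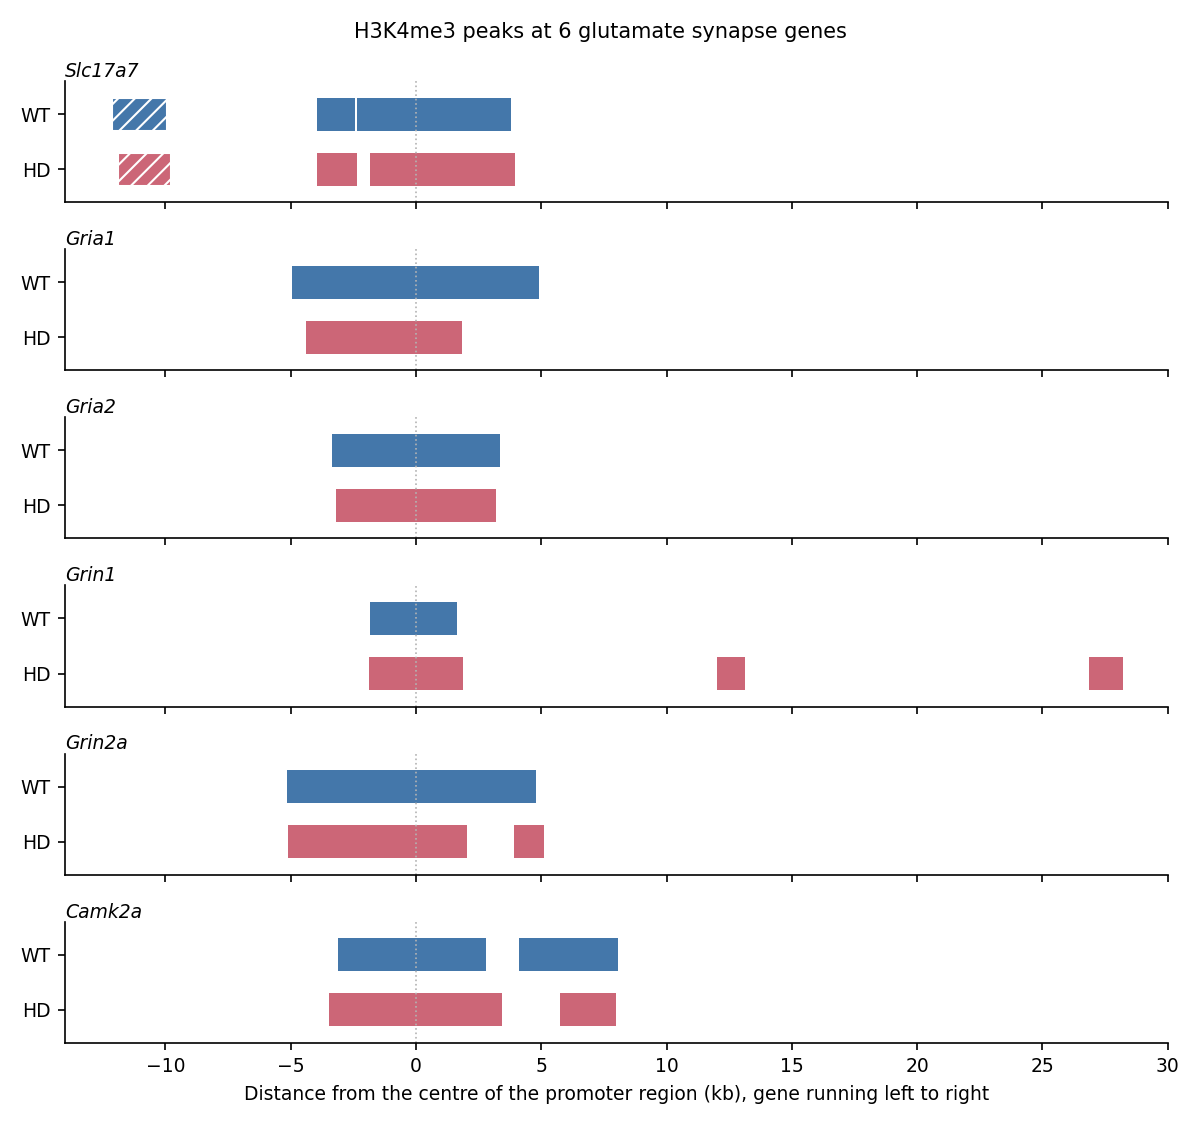
Peaks of each library (WT blue, HD red) at the 6 genes, by distance in kb from the centre of the promoter region, with each gene running from left to right; hatched bars cross the window end. The HD peak of Gria1 stops short on the right, the right part of the Grin2a region is divided in HD, and Grin1 has a pair of distant peaks in HD alone.

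Slc17a7 encodes VGLUT1, the transporter that fills synaptic vesicles with glutamate in most cortical and hippocampal excitatory neurons. Its promoter region, chr7:52416848-52424734, consisted of 2 peaks in each library. The WT peaks were 1500 and 6157 bp wide with scores of 126.97 and 1551.49. The HD peaks were 1609 and 5773 bp wide with scores of 115.93 and 1933.65. The score is the authors' own value for each peak, on a scale that depends on the library, so scores are read within a list only. Total covered length was 7657 bp in WT and 7382 bp in HD, a log2 ratio of -0.05, and 58.3% of shared regions had a lower ratio. The outer edges nearly coincided, with the HD region starting 4 bp farther in on the 5′ side and ending 136 bp farther out on the 3′ side. The difference lay between the peaks, where the gap was 94 bp in WT and 501 bp in HD. The larger peak thus began 520 bp later in HD, and the larger peaks alone had a log2 ratio of -0.09. The smaller HD peak overlapped the larger WT peak by 19 bp, and this overlap is what joined the 4 peaks into 1 region. With peaks within 1 kb of each other merged, the log2 ratio became 0.024, so the direction at Slc17a7 rests on how the gap is counted.

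The Slc17a7 window also touched a region at its 5′ end, chr7:52408659-52411021. It covered 2203 bp in WT and 2125 bp in HD, a log2 ratio of -0.05. On GRCm38.p6 the genes next to Slc17a7 on that side are Pih1d1 and Aldh16a1. The region was therefore left out of the Slc17a7 values.

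Gria1 encodes GluA1, the AMPA receptor subunit whose delivery to synapses accompanies long-term potentiation. Its window of 350 kb held 1 peak in each library, the WT peak at chr11:56824030-56833878 and the HD peak at chr11:56824562-56830784. The WT peak covered 9849 bp, wider than 99.8% of the WT list, and the HD peak covered 6223 bp, wider than 99.2% of the HD list. The mark was thus long in both libraries and 3626 bp shorter in HD, which is 1.58-fold, or a log2 ratio of -0.66. Of shared regions 1.72%, and of those of 5 kb or more 1.04%, had a lower ratio. The HD peak lay wholly inside the WT peak.

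The loss at Gria1 was uneven between its ends. The HD edge lay 532 bp inward on the 5′ side and 3094 bp inward on the 3′ side, so 85.3% of the missing length lay on the side of the gene body. Over the 33746 edges of regions with 1 peak of each library, the median inward shift was 63 bp, with quartiles of -53 and 196 bp. The 3′ shift at Gria1 was the largest inward shift among these edges, and the next was 3069 bp. Most WT peaks were too narrow for such an inward shift, with a median width of 2268 bp. Edges of regions of 5 kb or more were not compared apart. Outward shifts of HD edges were fewer beyond 1 kb, 87 against 302 inward, but the farthest of them was 5357 bp. A shift of this size was therefore rare in these libraries in both directions. When regions with several peaks are included, 2 of 34734 outer edges lay inward by 3094 bp or more, that of Gria1 included, and 2 lay outward as far. The score was high in both lists: 79.9% of WT peaks and 78.3% of HD peaks scored lower than the Gria1 peak, at 1743.17 and 2480.11. From the 3′ edge of the peak to the end of the window, a stretch of 316 kb in WT and 319 kb in HD, there was no further peak. The Gria1 values were unchanged with scores under 100 left out, peaks within 1 kb merged, or lists trimmed to equal length by score. Those settings could not have changed them, since the window held 1 high-scoring peak in each library and no other peak.

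Gria2 encodes GluA2, the subunit that makes AMPA receptors nearly impermeable to calcium once its transcript has been edited. It had 1 peak in each library, chr3:80601128-80607849 in WT and chr3:80601289-80607679 in HD. The peaks covered 6722 and 6391 bp, a log2 ratio of -0.07, which was the same to 2 decimals as the median of regions of 5 kb or more. The HD edges lay inward by similar amounts, 170 bp on the 5′ side and 161 bp on the 3′ side. Both peaks had the score 3100, a value shared by 448 WT peaks and 2184 HD peaks. Of the length covered by either library, 95.1% was covered by both, the highest share among the 6 promoter regions, against a median of 91.7% over regions of 5 kb or more. The stretch of 131 kb from this region to the 3′ end of the window held no peak in either library. The AMPA receptor genes thus differed from each other: the Gria1 region was 3626 bp shorter in HD and the Gria2 region 331 bp shorter. With 1 library per genotype this difference between the genes was not tested.

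**Figure D3:**
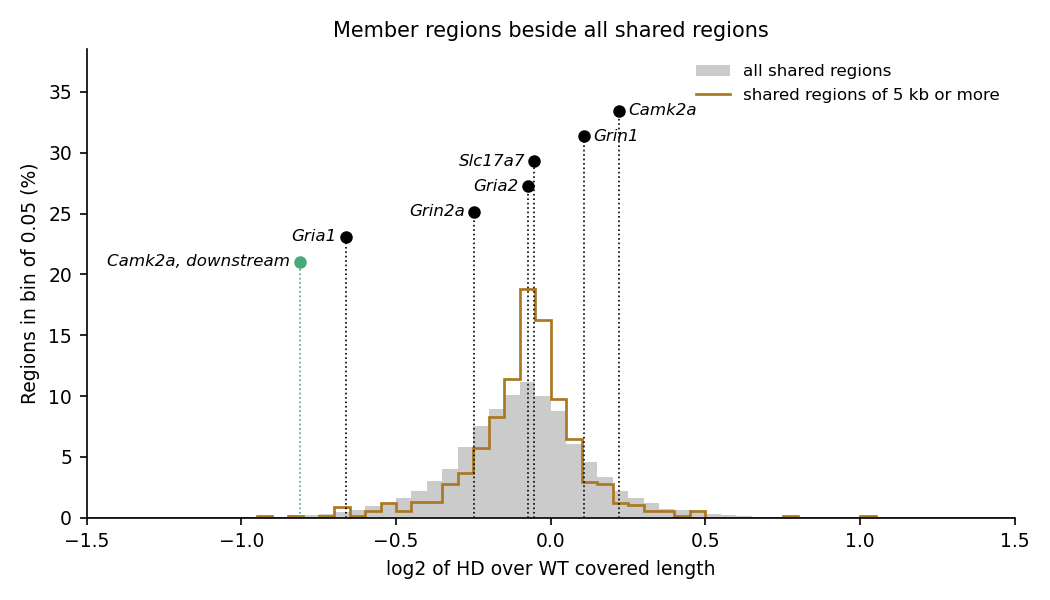
Distribution of log2 of covered length, HD over WT, in bins of 0.05, for all 17367 shared regions (grey) and the 676 of 5 kb or more (brown line), with regions beyond 1.5 in either direction not drawn. Black points mark the promoter regions and the green point the downstream region of Camk2a, at heights with no meaning. Gria1 at -0.66 and the downstream Camk2a region at -0.81 lie in the left tail, and Camk2a at 0.22 lies to the right of the bulk.

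Grin1 encodes GluN1, the subunit present in every NMDA receptor. Its promoter peak was chr2:25171622-25175095 in WT and chr2:25171382-25175123 in HD. It covered 3474 bp in WT and 3742 bp in HD, a log2 ratio of 0.11, and 84.8% of shared regions had a lower ratio. The gain lay almost wholly on the 3′ side, where the HD edge was 240 bp farther out, while the 5′ edge was 28 bp farther out. Within its own list the peak ranked at the middle in WT, with 49.4% of peaks scoring below its 824.99, and higher in HD, with 71.4% below its 2128.24. The lists differ in length and in score scale. With 1 library per genotype, whether the signal changed was not tested and cannot be read from these ranks.

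Grin1 was also the gene with peaks in HD alone. One lay at chr2:25160119-25161225, 1107 bp wide with a score of 72.54, and lay 10156 bp downstream of the HD promoter peak. The other lay at chr2:25145041-25146395, 1355 bp wide with a score of 56.96, near the 3′ end of the window. Both were weak: 8.88% and 3.42% of HD peaks scored lower, and the lowest score in either list was 50.01. The nearest WT peak lay 10.4 and 15.5 kb away. On GRCm38.p6 the noncoding gene Grin1os lies within the 3′ part of Grin1 and Lrrc26 lies at its 3′ end, so the second peak may belong to another gene. These were the only 2 of the 12 HD peaks in the windows without a WT counterpart, and 9.30% of the whole HD list had none. All 9 WT peaks in the windows had a counterpart, and 5.50% of the whole WT list had none. With scores under 100 left out neither Grin1 peak remained. With lists trimmed to equal length by score 1 of them did.

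Grin2a encodes GluN2A, the NMDA receptor subunit that increases as synapses mature. The WT library had 1 peak over its promoter, chr16:9986687-9996623, of 9937 bp with a score of 2404.47. The HD library had 2 peaks there, chr16:9989461-9996614 of 7154 bp with a score of 3100 and chr16:9986371-9987585 of 1215 bp with a score of 60.31. The HD peaks left a gap of 1875 bp inside the WT peak, towards the gene body. On the 5′ side the libraries ended within 9 bp of each other. On the 3′ side the small HD peak reached 316 bp beyond the WT edge, while the large HD peak alone ended 2774 bp short of it. Covered length was 9937 bp in WT and 8369 bp in HD, a log2 ratio of -0.25, and 21.5% of shared regions had a lower ratio. Of the regions of 5 kb or more, 13.2% had a lower ratio. Division of a long region into more HD than WT peaks was common: it occurred in 21.3% of regions of 5 kb or more, and in 1 of the 5 such promoter regions here. That share counts gaps of any size. A stretch of 1875 bp or more covered in WT alone, at an end or inside, was present in 36 of the 17367 shared regions. Long regions leave more room for one. The small HD peak was near the lowest score of its list, with 4.92% of HD peaks scoring lower. Without it, under a minimum score of 100 or with equal numbers of peaks, the log2 ratio became -0.47. From there to the 3′ end of the window, 436 kb, no peak was present in either library.

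Camk2a encodes the alpha subunit of CaM kinase II, a kinase of the postsynaptic density used widely as a marker of forebrain excitatory neurons. Its promoter peak was chr18:61084357-61090277 in WT and chr18:61084030-61090926 in HD. The HD peak reached farther at both ends, by 327 bp on the 5′ side and 649 bp on the 3′ side, and contained the WT peak. Covered length was 5921 bp in WT and 6897 bp in HD, a log2 ratio of 0.22, and 92.7% of shared regions had a lower ratio. Among regions of 5 kb or more, 95.9% had a lower ratio. Of the 33746 edges of regions with 1 peak of each library, 277 lay outward by 649 bp or more.

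Downstream of its promoter Camk2a had a second region, which went the other way. The WT peak was chr18:61091593-61095529, 3937 bp wide with a score of 159.74. The HD peak was chr18:61093236-61095478, 2243 bp wide with a score of 120.54. Both were low in their lists: 22.5% of WT peaks and 17.6% of HD peaks scored lower. The 3′ edges differed by 51 bp, and the HD peak began 1643 bp later on the side facing the promoter. The region was thus 1.76-fold shorter in HD, a log2 ratio of -0.81, and 0.714% of shared regions had a lower ratio. That share is over regions of every score, and regions of similarly low score were not compared apart. Of the 33746 edges, 57 lay inward as far or farther. The gap between the promoter peak and this peak was 1315 bp in WT and 2309 bp in HD. Counted together, the regions covered 9858 bp in WT and 9140 bp in HD, a log2 ratio of -0.11. The gain at the Camk2a promoter was therefore smaller than the loss next to it, and the direction for this gene depends on whether the downstream region is counted with the promoter.

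Outside the promoter regions the windows held little H3K4me3. The region at the 5′ end of the Slc17a7 window, set apart above, reached into it by 861 bp in WT and 1021 bp in HD. The gene bodies held the downstream region of Camk2a in WT, 3937 bp. In HD they held that region and the pair of weak Grin1 peaks, 4705 bp together. The log2 ratio over these gene body regions was 0.26, but it became -0.81 with a minimum score of 100, which removed the Grin1 peaks, so no common direction can be read from it. That cutoff was the same in both lists, though their score scales may differ. Gria1, Gria2 and Grin2a had no peak in the rest of their windows in either library, and Slc17a7 had none other than that at its 5′ end.

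**Figure D4:**
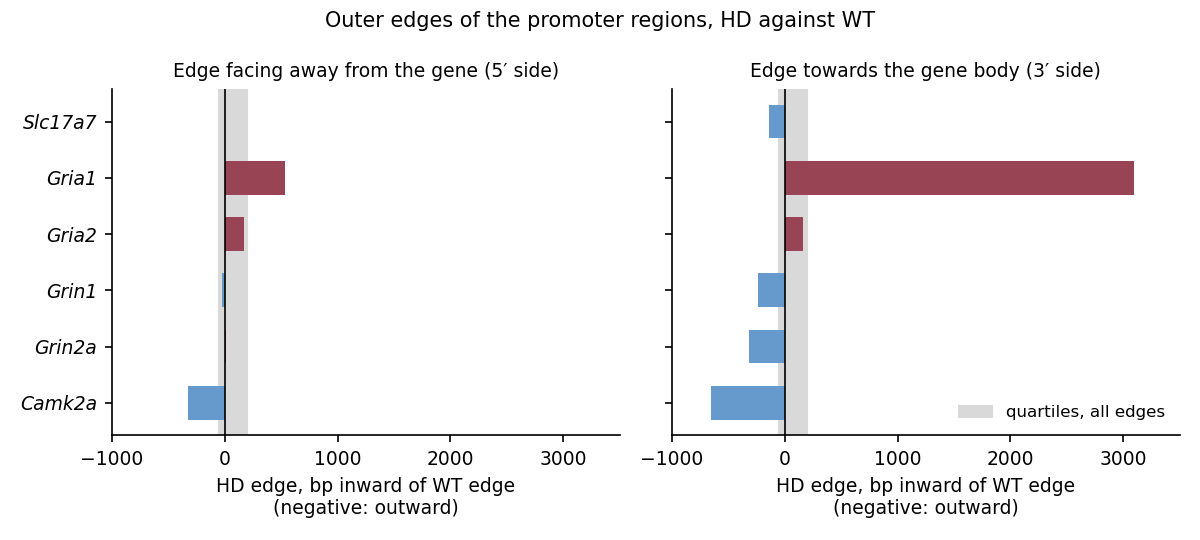
Distance in bp by which the outer HD edge lay inward of the outer WT edge (negative when outward) at the 5′ side (left) and 3′ side (right) of each promoter region; the grey band spans the quartiles, -53 and 196 bp, of all edges of regions with 1 peak of each library. The 3′ edge of Gria1, at 3094 bp, stands apart from the others, and Camk2a is outward at both ends, by 327 and 649 bp.

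The longest unbroken stretch that only 1 library covered was also compared, since it counts a shortened end and an inner gap alike. This measure and its cutoff of 1.5 kb were not among the planned comparisons, so the counts only describe these regions. Such a stretch of 1.5 kb or more was present in WT at 3 of the 8 shared regions in the windows: 3094 bp at Gria1, 1875 bp at Grin2a and 1643 bp at the downstream region of Camk2a. Over all shared regions 0.559% had one, and over those of 5 kb or more 5.18% had one. Long regions leave more room for such a stretch, and the downstream Camk2a region, at 3937 bp in WT, was under 5 kb. A stretch of that length covered in HD alone was present at 0 of the 8, against 0.161% of all shared regions. Among the 8, the longest stretch covered in HD alone was 649 bp, at the Camk2a promoter. The stretches at Gria1 and Grin2a both lay on the 3′ side of the centre of the promoter region. At the 5′ side, Gria1 had the largest inward shift of the 6, and the 5′ edges of Slc17a7, Grin1 and Grin2a lay within 28 bp of each other in WT and HD. Of the 4 promoter regions with 1 peak of each library, 1, that of Gria1, had an HD edge 1 kb or more inward, against 1.77% of the 16873 regions of this kind. The Gria1 region was longer than 99.6% of all shared regions, and long regions leave more room for such a shift. How deeply each library was sequenced is unknown, and its part in these differences was not tested.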

How the data were processed

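H3K4me3 ChIP-seq of hippocampus gave 1 WT and 1 HD library, and an input library was not analysed here. What the authors deposited is a peak list for each library, with the position and score of every peak. Peak names carry MACS; for its version, settings and control, the sources used here give nothing. Tools named in the submitters' processing notes are BWA 0.5.9, CASAVA 1.8.2 and SAMtools, with the builds mm9 and NCBIM37. The unit of the deposited score is not named in the files; values run from 50.01 to 3233.06. The files hold no read counts, so depth is unknown and no interval is given.

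Positions are mm9, counted from 1. Peaks of both lists that overlapped by at least 1 bp were joined into regions, and covered length was compared as log2 of HD over WT (Python 3.11.15, numpy 2.4.6, pandas 2.3.3, matplotlib 3.10.9). Gene windows were fixed in Mb, and gene strands came from general knowledge. The promoter region was the shared region wholly inside the window nearest its 5′ end; the rest of the window counted as gene body. Named genes are the 6 of the set, each with every peak of its window. Members, windows and lists were chosen with earlier results of these data known. On lists made from the WT list with 600 known changes, the procedure found 600. Those lists had peaks within 3 kb merged and held no noise, so this checked the arithmetic only. Closely spaced peaks were not covered by it. Promoter sequences are RefSeq's, on GRCm38.p6, and were matched by symbol. RefSeq gene positions on that build were used only for names of neighbours. Other glutamate synapse genes were not analysed here, since no mm9 annotation was used. The alternatives tried were overlap of 50% in place of 1 bp, scores under 100 left out, merging within 1 kb, lists of equal length by score, windows widened by 10 kb and the widest region as promoter. Added after the data were seen were the promoter with regions within 3 kb, and leaving out regions that cross a window end. The longest stretch covered by 1 library only, with its cutoff of 1.5 kb, was also not among the planned comparisons.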

Additional observations from a re-analysis of the deposited data

How the results depend on the processing

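Taking as a move any change of sign, or a change of over 0.1 in log2 ratio, over 250 bp in an edge or over 1.5-fold in a count, 98 of 112 values under the alternatives did not move. This share does not measure robustness, since many of the values could not move. Regions of 1 high-scoring peak per library, as at Gria1 and Gria2, were out of reach of the score and merging settings. Medians over the genes were also counted beside the values of single genes. The HD peaks without a counterpart, 2 as deposited, were 0 with scores under 100 left out, 1 with lists of equal length by score and 3 with a reciprocal overlap of 50%. A score of 100 may not be equally strict in each list, since the scale depends on the library. The gene body log2 ratio, 0.26 as deposited, was -0.81 with a minimum score of 100 and -0.23 with equal numbers. With windows widened by 10 kb it was 0.14, but this is not a value for the gene bodies alone. That setting counted every region wholly inside the wider windows, other than the promoter regions. It took in the region at the 5′ end of the Slc17a7 window, and it reached peaks beyond the windows of Camk2a, Grin1 and Slc17a7. The widening moved the Camk2a ratio from -0.81 to -0.46. It did so by adding a region outside the window on its 5′ side, 7.48 kb away in WT and 7.38 kb in HD. That move therefore says nothing about the downstream region of Camk2a. Slc17a7 turned from -0.05 to 0.024 with peaks within 1 kb merged. The Camk2a promoter turned from 0.22 to -0.11 with regions within 3 kb counted. The 3′ edge of Grin2a, 316 bp outward as deposited, was 2774 bp inward with scores under 100 left out and with equal numbers, both of which drop its small HD peak and move the Grin2a log2 ratio to -0.47. Over the 6 promoter regions the median inward shift of the 3′ edge turned from -188 to 12.5 bp under the same alternatives. The widest region of each window was its promoter region. No paired analysis was possible because there is 1 library for each genotype. An absent weak peak cannot be told apart from one missed at unknown depth.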
